A study of Drosophila melanogaster with 84 samples.

Results

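The cells described here are 173 sorted fly brain neurons that carried mRNA of *gl* and *VGlut* but little mRNA of the neuropeptides that mark other dorsal clock neurons. They were selected on 9 genes in single wells: at least 1 *gl* UMI, *VGlut* of 8 TP10K or more, *sNPF* under 2, no *Rh7* UMI, *AstC* under 30, *CNMa* under 20, *AstA* and *CCHa1* under 10 and *Pdf* under 150. TP10K is the number of UMIs (unique molecular identifiers, each marking 1 mRNA molecule) per 10000 UMIs of the same cell. Of 8060 wells, 4595 held 1000 to 6000 genes, 6000 to 75000 UMIs and a Shannon entropy (natural log) of at least 5.5, and 3.76% of these met the rule. They are called the peptide-poor cells below.

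The study sorted single EGFP-positive neurons from dissected brains of *Clk856-GAL4* flies, in which EGFP marks most clock neurons and, by the study's own count, a few cells per hemisphere that lack TIM protein. Equal numbers of males and females were pooled. LD flies were kept in 12 h of light and 12 h of darkness and taken at ZT02, ZT06, ZT10, ZT14, ZT18 and ZT22, and DD flies were taken at CT02 to CT22 after 3 days of constant darkness. Both groups carried the same driver and EGFP, and no other allele or agent separates them. The title of each library carries a run of digits, and libraries of the same time and digits were taken as 1 batch, the replicate here, counted from 1 within each time point. Nothing else says what a batch is. The p-values for light and time therefore measure the spread between batches. Those of comparisons between sets of cells, fitted with the batch as a term, measure how the difference between sets varies over batches. Several time points of the same light share such digits, but none occur in both LD and DD, and therefore light and these sets of libraries cannot be told apart.

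The DN1p neurons are the posterior members of the dorsal clock neuron group. They receive PDF and light signals, release glutamate and several peptides, and are known for shaping sleep and the daily timing of activity. Glass, the product of *gl*, is a zinc finger transcription factor needed for photoreceptors and for the DN1ps, and VGlut loads glutamate into synaptic vesicles. In the clock itself, CLK and CYC switch on *per*, *tim*, *vri*, *Pdp1* and *cwo*, and the PER and TIM proteins then hold CLK and CYC back.

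The peptide-poor cells came from 27 of 28 batches and 66 of 84 libraries, 80 of them in LD and 93 in DD. They made up 0 to 9.52% of the kept cells of a batch, with a median of 2.94%, and 3.50% in LD against 4.02% in DD. CT06 batch 2 held none of its 6 kept cells, and ZT02 batch 2 held the most, 23. At least 3 cells were found in 22 batches, 10 of LD and 12 of DD, and tests of light and time used the 165 cells of these. Their libraries are not equally deep, since the 84 libraries held 191993 to 4259643 UMIs with a median of 1152988. A median peptide-poor cell had 13274 UMIs and 2330 genes, against 16195 and 2490 for all kept cells. Of the libraries, 81 use the same set of 96 well barcodes, and 48 of the 80 barcodes of these cells occur in more than 1 of them, but 0 cells had counts identical to another.

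Batches were uneven. In ZT14 batch 1, which had only 3 of the cells, 79 genes reached 5 TP10K and were at least 5-fold above the median of the other batches (0.5 TP10K added), against 35 in CT10 batch 1, 34 in ZT06 batch 1 and 0 to 21 in the other 19. These 3 are called the batches that stand apart and were left out together. CT10 batches 1 and 2 (19 such genes in the latter), whose cells shared genes of their batch, and ZT02 batch 2 (5 such genes, but the most cells) are called the doubted batches and were left out together as well, and the calls that changed are given beside the results.

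The rule bounds the levels of its 9 genes, so these are given as a description only. The lowest *VGlut* inside the rule was 8.12 TP10K and the highest outside 7.97, and the corresponding values were 1.98 and 2.05 for *sNPF*, 23.2 and 30.3 for *AstC*, 19.7 and 20.8 for *CNMa*, 7.35 and 10.1 for *AstA* and 2.99 and 14.5 for *CCHa1*. The limit on *gl* lay between 0 and 0.141 TP10K and that on *Rh7* between 0 and 0.188. No cell was lost to the limit on *Pdf* alone, the highest value being 135. The genes with most cells at the edge were *gl*, with 219 cells that met all other limits, *VGlut* with 202 and *Rh7* with 129. Mean levels were 2.88 TP10K for *gl* and 25.2 for *VGlut*, and per batch *VGlut* ran from 11.6 over a median of 22.3 to 44.9. *Pdf* was not absent: 93.6% of the cells had a UMI, with a median of 8.39 TP10K. Nor were the other peptide genes of the rule, with a UMI of *AstC* in 90.2% of the cells, *CNMa* in 78.6%, *sNPF* in 56.1%, *AstA* in 49.1% and *CCHa1* in 23.1%.

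The evidence for *gl* in a single cell was often thin. A single *gl* UMI was found in 49 cells, 2 in 30 and 3 in 18, and 76 cells had 4 or more. Among 390 *Pdf*-rich cells (150 TP10K or more), lateral neurons that should lack *gl*, 27.4% had a *gl* UMI and 10.8% had at least 2, at a median depth of 19918.5 UMIs. After each cell was thinned to 6000 UMIs, which left out none, 76.9% of the peptide-poor cells still had a *gl* UMI against 10.8% of the *Pdf*-rich ones. The rule chose the former by a *gl* UMI, so these shares are a description and no test. Since 27.4% of the *Pdf*-rich cells had a *gl* UMI, a part of the peptide-poor cells with a single one is at a level that background reaches.

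The study named *D* and *ham* as factors enriched in most DN1p clusters from these same samples, so they are no independent check of that identity. They were not in the rule, and their shares describe whether the cells carry other factors of the *gl*-positive DN1ps. *D* (Dichaete, a Sox-family HMG-box factor; 3L, 14175610 to 14178620) had a UMI in 112 cells, 64.7% (95% exact binomial interval 57.1 to 71.8, counting error only). *ham* (hamlet, a zinc finger factor of neuronal fate; 2L, 18762874 to 18792906) had one in 91 cells, 52.6% (44.9 to 60.2). Thinned to 6000 UMIs, the shares were 49.1% and 40.5%, against 7.69% and 5.13% of *Pdf*-rich cells (30.3% and 15.9% before thinning), so neither is at background level over the whole set.

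Both factors were found together in 76 cells, *D* alone in 36 and *ham* alone in 15. The remaining 46 cells (26.6%) had neither. For these cells the data do not bear out the DN1p label, and the set is therefore named by its rule. Among 283 cells that met every limit but those on *AstC* and *CNMa*, 85.2% had a *D* UMI and 78.4% a *ham* UMI at a median of 16136 UMIs per cell. Among 219 cells that met every limit but lacked a *gl* UMI, the shares were 29.7% and 14.6% at 11210. Among 129 cells that met every limit but had an *Rh7* UMI, they were 70.5% and 60.5% at 18748.

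Clustering of all kept cells placed the peptide-poor cells in 17 of 42 clusters, so they are no single population. Clusters are named below by their leading genes, and nothing is tested between them, because the same genes defined them. The cluster led by *beat-IIIc* and *CG9650* held 60 of the cells (34.7%), from 21 batches, 24 in LD and 36 in DD. The cluster led by *fd102C* and *dac* held 24 (15 in LD, 9 in DD), and that led by *ct* and *Wnt4* held 16 (9 and 7). These 3 groups stayed whole at 36 and at 48 clusters, with at most 1 cell added.

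**Figure D1:**
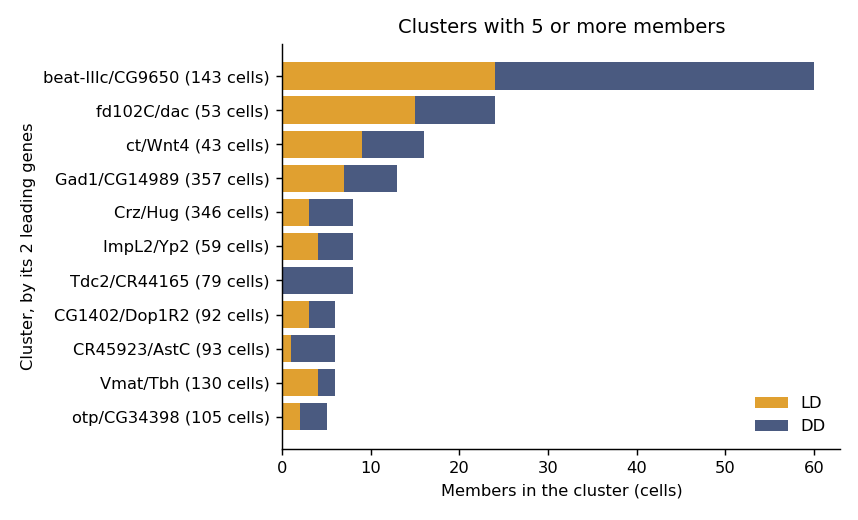
Number of peptide-poor cells (horizontal axis) in each cluster with at least 5 of them (vertical axis, named by the 2 leading genes of the cluster), split into LD and DD. The *beat-IIIc*/*CG9650* cluster holds 60 of the 173 cells, and all 8 cells of the *Tdc2*/*CR44165* cluster come from DD.

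The *beat-IIIc*/*CG9650* cells were the largest group with *D* and *ham*. *beat-IIIc*, a cell surface protein of the immunoglobulin superfamily (2L, 17187637 to 17260734), had a mean of 12.4 TP10K in them against 3.54 in the other peptide-poor cells. *CG9650*, a zinc finger gene, stood at 8.94 against 2.45. *D* averaged 3.42 TP10K with a UMI in 57 of the 60 cells, *ham* 1.96 with a UMI in 50, and *Sox21b*, a relative of *D*, had a UMI in 59. Some clock genes were also higher than the mean of the other peptide-poor cells. *tim* had a mean of 10.8 against 4.10 TP10K, *vri* 3.76 against 0.68, *Pdp1* 73.2 against 26.2 and *Clk* 2.28 against 0.54. *per* and *cwo* were mixed when compared by time point. The mean of *per* was lower in these cells at CT06, ZT06 and ZT14, and higher at the other times. That of *cwo* was lower at CT18, ZT02 and ZT18, and higher at the other times. The cluster as a whole holds 143 cells, 42 of them excluded from the rule only by an *Rh7* UMI.

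The *fd102C*/*dac* cells carried *gl* at 3.53 TP10K but almost no *D* or *ham*. *D* averaged 0.24 and *ham* 0.04 TP10K, with a UMI in 8 and 3 of 24 cells. They were marked instead by *fd102C*, a forkhead factor on chromosome 4 (836986 to 844529), at 5.10 TP10K, by *dac* (dachshund, a factor of brain and eye development) at 4.70 and by *heph*, a polypyrimidine tract-binding RNA regulator, at 72.0 against 3.73 in the *beat-IIIc*/*CG9650* cells. *mGluR*, the metabotropic glutamate receptor, was at 9.45 TP10K. *tim* was low at 1.71 and *Clk* at 0.21, with a *Clk* UMI in 6 cells.

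The *ct*/*Wnt4* cells combined *D* and *ham* with low clock gene levels. *D* averaged 3.33, *ham* 2.30 and *Sox21b* 4.32 TP10K, the first pair close to the largest cluster, whereas *tim* averaged 1.42, *vri* 0.44 and *Clk* 0.18. *ct* (cut, a homeodomain factor; X, 7608428 to 7678859) was at 6.97 TP10K against 0.26 in the largest cluster. *CG9650* was at only 0.34, and *Proc*, which encodes the peptide proctolin, at 5.03 against 0.27.

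**Figure D2:**
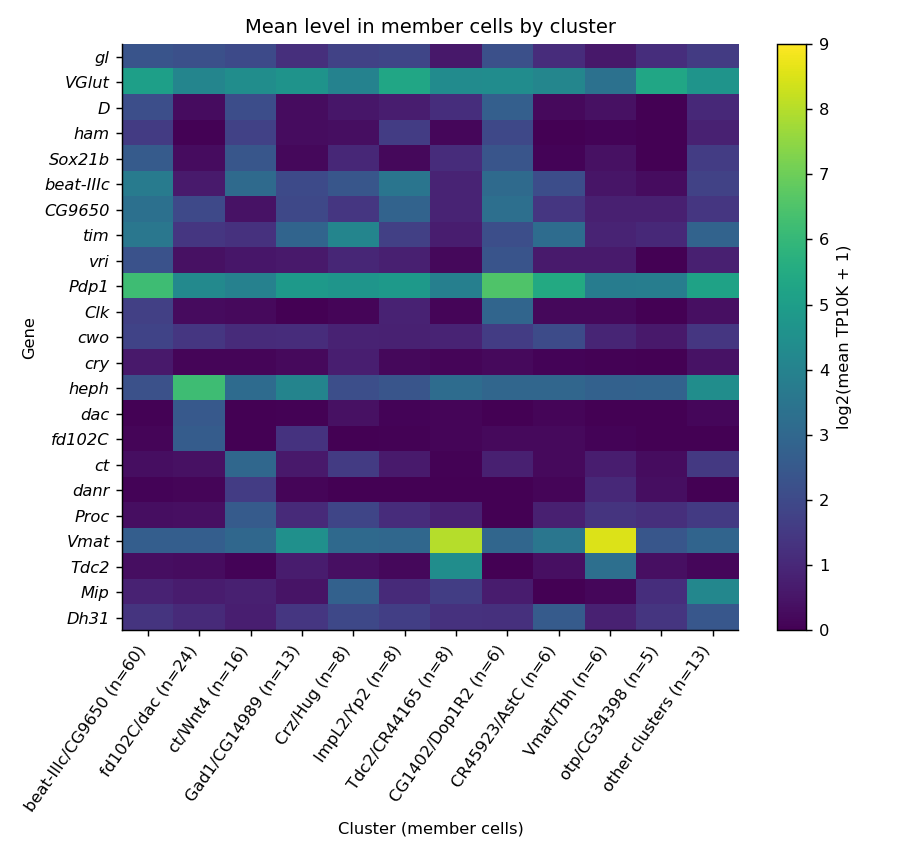
Mean level of 23 genes, as log2(TP10K + 1) in color, in the peptide-poor cells of each cluster. *D*, *ham* and *Sox21b* are high in the *beat-IIIc*/*CG9650*, *ct*/*Wnt4* and *CG1402*/*Dop1R2* columns, while *fd102C*, *dac* and *heph* are highest in 1 cluster and *Vmat* marks the *Tdc2*/*CR44165* and *Vmat*/*Tbh* columns.

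A smaller number of cells joined clusters that are mostly made of other neurons. The *Gad1*/*CG14989* cluster, with 357 cells, held 13 of them, although their own *Gad1* (glutamate decarboxylase, which makes GABA) averaged only 1.02 TP10K. The *Tdc2*/*CR44165* cluster held 8, all from DD, and the *Vmat*/*Tbh* cluster 6. In these, *Vmat*, the vesicular monoamine transporter, averaged 257 and 370 TP10K, and *Tbh*, which makes octopamine, 127 in the latter, while *gl* was at 0.50 in both. The 6 cells of the *CG1402*/*Dop1R2* cluster had levels above the largest group, with *D* at 5.64, *ham* at 2.89 and *Clk* at 6.58 TP10K. The *Crz*/*Hug* and *ImpL2*/*Yp2* clusters held 8 each, *CR45923*/*AstC* 6 and *otp*/*CG34398* 5, and 13 cells were scattered over clusters with fewer.

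Over all 173 cells, a few cells carried most of the mRNA of some transmitter and peptide genes. *Vmat* reached 20 TP10K in 20 cells and 100 in 15, and the 10 highest cells held 62.8% of its sum. *Ms*, which encodes myosuppressin, was at 1362 TP10K in a single cell, and the 10 highest cells held 88.0% of the sum. The same share was 81.7% for *Mip* (myoinhibitory peptide). *Dh31*, a diuretic hormone used by other DN1ps, averaged 1.82 TP10K with a UMI in 123 cells, and *ITP* (ion transport peptide) 5.67 with a UMI in 138. Proprotein convertase *amon*, which cuts peptide precursors, was present in 168 cells at 6.86 TP10K.

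Markers of other cells that the sort could hold were measured over whole lists. Some lateral neuron markers, among them *hth*, were named by the study from these same samples, so they are no independent check. The 8 lateral neuron markers summed to 24.4 TP10K on average and to 3.71 to 78.9 per batch. All 173 cells had a UMI of at least 1 of them and 165 of at least 2. Among them, *hth* alone averaged 13.6 TP10K, with a UMI in all 173 cells. The 21 markers of other dorsal and lateral posterior clusters summed to 3.80 on average and to 0.45 to 31.3 per batch. *Gad1* and *VGAT*, the GABA markers, summed to 1.47 TP10K on average and to 0 to 4.16 per batch, both with a UMI. The 4 monoamine markers (*Vmat*, *ple*, *Trh*, *Tdc2*) summed to 0.78 to 126 per batch with a median of 7.78. Of the glial markers, all 6 measured had a UMI somewhere, with sums of 0 to 13.3 per batch and a median of 0.61, but *repo*, which defines glia, had a UMI in only 5 cells. *ChAT*, which makes acetylcholine, averaged 5.58 TP10K. The highest receptor and channel genes were *Rdl*, a GABA receptor, at 36.3 TP10K, and the potassium channel genes *Sh* at 31.3 and *Hk* at 19.5, each found in at least 172 cells. *Pdfr*, the PDF receptor, averaged 4.19 with a UMI in 144.

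In LD, *tim* rose and fell with the day in the peptide-poor cells. Summed per batch, *tim* was at 0.695 and 0.641 TP10K at ZT02, 1.73 and 1.15 at ZT06, 5.36 at ZT10, 11.9 and 11.7 at ZT14, 13.5 at ZT18 and 2.17 and 5.79 at ZT22. Among these batches of at least 3 cells, those of ZT14 and ZT18 were all above the other times, and both ZT02 batches were below all others. The smaller batches did not keep this order. With them the ZT10 mean was 7.83 TP10K over 3 batches, and a cell of ZT10 batch 2 was at 21.3. ZT18 batch 1, a single cell, was at 6.26. A cosine and sine of 24 h gave a log2 amplitude (mean to peak) of 2.17 with a peak at 15.6 h, and *tim* was the only cycler among 1497 genes tested, 0.0668% (edgeR quasi-likelihood test, adjusted p = 0.0272). A cycler also had to differ at least 1.5-fold between time-point means and to reach 0.8 TP10K. At an unadjusted p under 0.05 there were 62 genes, 5 of them among 6 clock genes tested, and DESeq2 called 2.

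The call for *tim* rested on few batches. It was lost without ZT02 batch 1 or 2, ZT06 batch 2, ZT10 batch 1, ZT14 batch 1 or 2 or ZT18 batch 2, with an adjusted p of 0.0707 to 0.192, without the doubted batches (adjusted p = 0.153) and without those that stand apart (adjusted p = 0.0687), while the amplitude stayed between 2.02 and 2.33 in these fits. The cells of the *beat-IIIc*/*CG9650* cluster had mean *tim* levels of 1.48 TP10K at ZT02, 17.2 at ZT10 and 22.3 at ZT14, and the other cells 0.50, 2.62 and 7.74. At ZT18 the order was the opposite, with 6.26 in the only cell of that cluster and 13.5 in the others.

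The other clock genes did not pass the threshold in LD in this fit. *vri* had an amplitude of 1.91, with 0.464 and 0.177 TP10K at ZT02, 3.40 at ZT10 and 1.55 and 5.51 at ZT14. *Clk*, whose mRNA is known to peak near dawn in flies, had an amplitude of 1.98 with a peak at 0.80 h. It was at 2.09 and 1.83 TP10K at ZT02 and 2.17 and 2.66 at ZT22, and at 0.358 and 0 at ZT14. *per* had an amplitude of 2.01, but was at 16.5 TP10K in ZT14 batch 1, which held 3 cells, and at 1.90 in batch 2. *Pdp1* had 0.69. These 4 genes were among the 62 above, each with an adjusted p of 0.968 in edgeR's quasi-likelihood test. *cwo* (amplitude 0.44, adjusted p = 0.968) and *D* (0.07, adjusted p = 0.993) were not among them. *Clk* passed in DESeq2 (adjusted p = 0.0252), and with no filter on low counts *vri* (adjusted p = 0.0162) and *per* (adjusted p = 0.000225) passed in edgeR.

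In DD, 0 of 2195 genes were cyclers (0%), with 111 at an unadjusted p under 0.05 in edgeR and 1 called by DESeq2. Without CT02 batch 1 edgeR called 1. *tim* was at 6.62 and 0.42 TP10K at CT02, 11.2 and 12.7 at CT06, 8.87, 15.8 and 2.06 at CT10, 25.1 at CT14, 4.99 and 4.52 at CT18 and 2.06 and 7.14 at CT22. Batches of different times overlapped, and its amplitude was 0.97 with a peak at 11.2 h (edgeR adjusted p = 0.902, or 0.0357 with no filter on low counts). *per* had an amplitude of 1.64 with a peak at 5.81 h and *Clk* 1.33 with a peak at 21.8 h. Both were among the 111, and they, like *ham* with an amplitude of 0.90, had an adjusted p of 0.902 in edgeR.

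**Figure D3:**
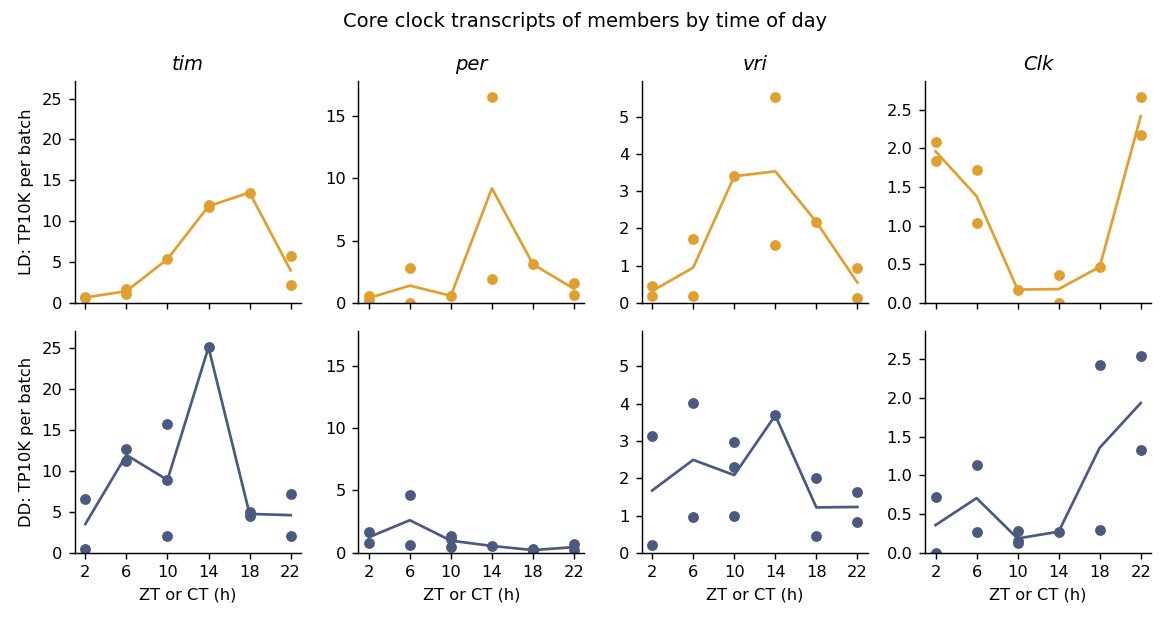
Levels of *tim*, *per*, *vri* and *Clk* in TP10K (vertical axes) against the time point in hours (horizontal axes) in LD (upper row) and DD (lower row). Each point is a batch with at least 3 peptide-poor cells and the line joins the means. *tim* runs from 0.641 TP10K at ZT02 to 13.5 at ZT18 in LD, and from 0.42 at CT02 to 25.1 at CT14 in DD.

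The difference between the rhythms was tested itself, as an interaction of light with the cosine and sine terms. Of 2688 genes, 0 passed (0%) with edgeR and 0 with DESeq2, and 122 had an unadjusted p under 0.05. *per*, *tim* and *vri* were among the 122, all with an adjusted p of 0.988 in edgeR. With the digits of the titles as a replicate block, 5 genes passed, *tim* among them.

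Between DD and LD at matched times, 11 of 2688 genes (0.409%) rose in DD and 30 (1.12%) fell (edgeR quasi-likelihood test with the time point as a factor, adjusted p under 0.05). With library size in place of TMM scaling the split was 27 higher and 22 lower, as the median of all genes moved from 0.01 to 0.14 on the log2 scale. The largest fall was that of *mt:srRNA*, the small ribosomal RNA of mitochondria (mitochondrial genome, 14131 to 14916). It ran from 8.98 over a median of 19.6 to 37.0 TP10K in the LD batches and from 1.17 over 4.30 to 11.1 in DD, so that the groups overlapped only between 8.98 and 11.1. It fell by 2.39 ± 0.29 on the log2 scale (SE, 10 and 12 batches, adjusted p = 9.64e-05), at all 6 time points. All mitochondrial genes together took a median of 5.09% of the UMIs of an LD cell and 7.19% of a DD cell.

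The other 4 of the 5 genes with the lowest folds are heat shock genes by name. Of their products, the Hsp70 proteins help to refold damaged proteins. Of the 9 genes of the stress list tested, however, *Hsp26* was lower, *Hsc70-4* was higher and the other 7 did not pass. *Hsp70Ba* had a median of 6.16 TP10K over the LD batches (lowest 1.85, highest 16.8) and of 1.28 over the DD batches (lowest 0.61), and the groups overlapped. It fell by 1.89 ± 0.33 (adjusted p = 0.00505). *Hsp26*, a small heat shock protein, ran from 2.51 over 4.22 to 19.7 in LD and from 0.21 over 1.34 to 4.10 in DD, and fell by 2.11 ± 0.43 (adjusted p = 0.0127). *Hsp67Bb* fell by 2.34 (adjusted p = 0.0120) and *Hsp70Bbb* by 2.27 (adjusted p = 0.0291). The *Hsp70* genes are near-identical copies between which reads can be split, and their single values are uncertain, as are those of 7 ribosomal RNA pseudogenes among the 30.

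*Dop2R*, a dopamine receptor, ran from 2.74 over 8.75 to 22.3 TP10K in LD and from 1.69 over 2.90 to 6.42 in DD. It fell by 1.64 ± 0.33 (adjusted p = 0.0127), at all 6 time points, and was the only one of 29 transmitter and amine receptor genes tested to change. Of 22 dorsal neuron transcription factors, a list the study chose on these samples, only *CG43689* changed, from a mean of 4.21 to 2.32 TP10K (adjusted p = 0.0262). No clock gene (0 of 6), *D*, *ham*, neuropeptide gene outside the rule (0 of 13), ion channel gene (0 of 18) or cell surface recognition gene (0 of 39) passed in either direction. At an unadjusted p under 0.05 there were 368 genes in all, and DESeq2 called 81.

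Of the genes higher in DD, *Cbp53E*, a calcium-binding calbindin, ran from 2.32 over 3.94 to 6.70 TP10K in LD and from 3.13 over 11.2 to 21.9 in DD. It rose by 1.46 ± 0.28 (adjusted p = 0.0109). *Fer2LCH*, the ferritin light chain that stores iron, rose by 1.06 (adjusted p = 0.0127) from 2.42 to 7.88 TP10K in LD to 6.02 to 16.3 in DD. *Fis1*, which acts in mitochondrial fission, rose by 1.40 (adjusted p = 0.0156) and *CG31808* by 1.14 (adjusted p = 0.0190). *RpS15Ab*, a near copy of another ribosomal protein gene and so uncertain, rose by 1.31 (adjusted p = 0.0309), and *Hsc70-4*, a constitutive chaperone, by 0.75 (adjusted p = 0.0414). All 6 were higher in DD at each of the 6 time points.

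**Figure D4:**
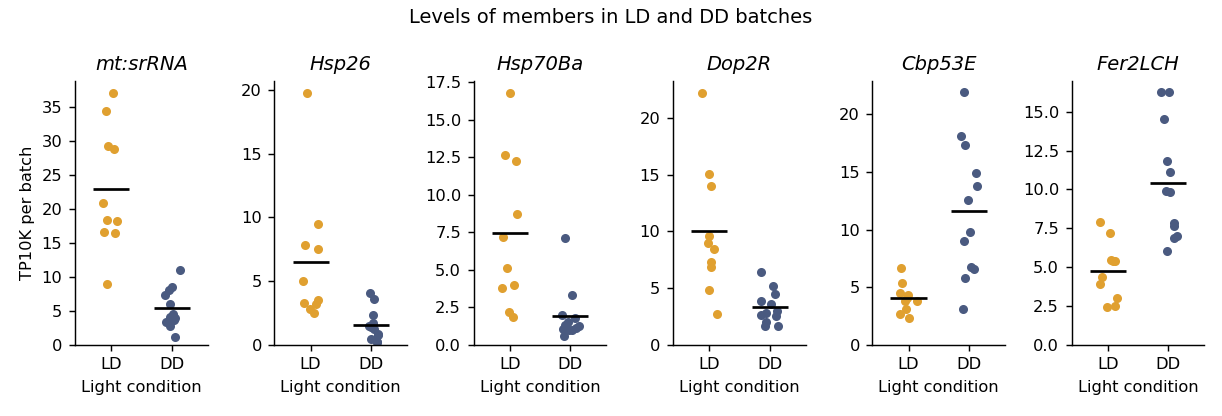
Levels in TP10K (vertical axes) of *mt:srRNA*, *Hsp26*, *Hsp70Ba*, *Dop2R*, *Cbp53E* and *Fer2LCH* in the LD and DD batches with at least 3 peptide-poor cells. Points are batches and black lines are means. *mt:srRNA* has means of 22.9 TP10K in LD and 5.35 in DD, and *Cbp53E* of 4.06 and 11.6.

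The number of genes that changed with light depended on single batches and on which of the cells were used. It was 21 without CT06 batch 1, 26 without CT22 batch 1, 22 without ZT10 batch 1 and 20 without the doubted batches. In batches with at least 6 cells it was 4. In the cells of the *beat-IIIc*/*CG9650* cluster alone, where batches with at least 1 cell were kept, it was 10. In that cluster *Hsp26* had a difference of -0.83 (edgeR adjusted p = 0.858), *Hsp70Ba* of -0.66 (0.911), *Fis1* of 0.51 (0.950), *Cbp53E* of 1.21 (0.571) and *Dop2R* of -1.25 (0.333). In the cells with a *D* or *ham* UMI, *Hsp26* had -1.16 (0.683), *Hsp70Ba* -0.85 (0.704) and *Hsp67Bb* -1.69 (0.417). Without the doubted batches *Hsp67Bb* (0.0548), *Fis1* (0.0548), *Hsp70Bbb* (0.131), *RpS15Ab* (0.0548) and *Hsc70-4* (0.112) lost their calls, and without the batches that stand apart *Fis1* (0.0613), *RpS15Ab* (0.121), *Hsc70-4* (0.0774) and *CG43689* (0.0720) did. *CG31808* lost its call without ZT18 batch 2 (edgeR adjusted p = 0.0597) and *Fer2LCH* without CT14 batch 1 (0.0524). *Hsp70Bbb* lost it without CT02 batch 1, CT06 batch 1 or 3, CT22 batch 1 or 2, ZT02 batch 2, ZT06 batch 1, ZT10 batch 1 or ZT22 batch 3 (0.0506 to 0.142), and *CG43689* without CT06 batch 1 or 3, CT10 batch 3, CT14 batch 1, CT22 batch 2 or ZT10 batch 1 (0.0515 to 0.0850). *RpS15Ab* kept it only without CT02 batch 1 or 2, CT10 batch 1, 2 or 3, CT22 batch 1 or ZT02 batch 1 or 2 (otherwise 0.0523 to 0.0903), and *Hsc70-4* only without CT06 batch 3, CT10 batch 1, CT18 batch 1 or CT22 batch 2 (otherwise 0.0503 to 0.108).

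Markers of other cells were also set side by side for LD and DD, with no test, and the ranges of the batches overlapped. The mean sums per cell in LD and DD were 0.90 and 1.96 TP10K for the GABA markers. They were 23.5 and 42.9 for the monoamine markers and 1.61 and 1.41 for the glial markers. The GABA markers summed to 0 to 2.11 TP10K per LD batch and 0.55 to 4.16 per DD batch, the monoamine markers to 0.78 to 58.1 and 5.42 to 126, and the glial markers to 0 to 13.3 and 0.15 to 10.1. Median depth was 13600.5 UMIs per cell in LD and 11977 in DD. The part of these in the differences with light was not tested.

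The peptide-poor cells were next compared, within batches, with sets that met every other limit of the rule. They failed only that on *gl*, only that on *sNPF*, or either or both of those on *AstC* and *CNMa*. The 129 cells that failed only the limit on *Rh7* were in the same fit, but no contrast with them is given. Of these, 42 lay in the *beat-IIIc*/*CG9650* cluster, so its genes are not particular to the peptide-poor cells. Each set is a mixture of clusters, so what goes along with the gene of a limit and what goes along with the mixture cannot be told apart. Of the 219 cells without a *gl* UMI, 9 were in the *beat-IIIc*/*CG9650* cluster, against 60 of the 173 peptide-poor cells. The *Gad1*/*CG14989* cluster held 44 of the 219, *otp*/*CG34398* 39 and *Tdc2*/*CR44165* 28. Each set needed at least 3 cells in a batch, or at least 1 in the fits of the largest cluster only. In the main fit 5821 genes were tested (edgeR quasi-likelihood test with the batch as a term), and the 9 genes of the rule are not counted as results. In these bulk sums, fewer cells of a type and less RNA per cell cannot be told apart. The comparisons share the peptide-poor cells.

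Against the 219 cells without a *gl* UMI, 60 genes (1.03%) were higher and 59 (1.01%) lower in 19 batches. With library size in place of TMM the split was 95 and 39, the median of all genes moving from -0.04 to 0.06. *Sox21b* led the higher genes, at 0.36 over a median of 2.19 to 5.45 TP10K per batch in the peptide-poor cells and 0 over 0.38 to 2.52 in the cells without *gl*. It was higher by 2.07 ± 0.28 on the log2 scale (SE, adjusted p = 1.10e-07), in 18 of 19 batches. *ham* followed, at 0 over 0.90 to 2.73 against 0 over 0.10 to 2.03 TP10K, higher by 1.93 ± 0.37 (adjusted p = 0.000285) in 17 batches. *D* was higher by 1.19 ± 0.29 (adjusted p = 0.00767), in 14 batches. The ranges of the batches overlapped for all 3.

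The other leading genes were *beat-IIIc*, with means of 5.96 against 2.04 TP10K (adjusted p = 1.66e-06), the POU factor gene *pdm3* (1.47, adjusted p = 0.000324), *CG9650* (1.46, adjusted p = 6.66e-06) and *mGluR* (1.43, adjusted p = 6.66e-06). *Pdfr* was higher by 1.05 (adjusted p = 0.000840) and the serotonin receptor gene *5-HT1A* by 0.87 (adjusted p = 0.00741). *Xport-B*, known as a chaperone of rhodopsin and TRP channels in the eye, was higher by 2.70 (adjusted p = 0.000910), but from means of only 0.37 and 0.06 TP10K. Of 49 cell surface recognition genes tested, 7 were higher and 2 lower, but their median was -0.18 against -0.04 over all genes. Of the 7, *dpr13* lost its call in 12 fits that left out a batch and *Dscam4* in 2.

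Among the lower genes, *pros* (Prospero, a homeodomain factor) ran from 1.47 over 10.3 to 31.7 TP10K against 3.26 over 20.7 to 124. The ranges overlapped, and the difference was -1.22 ± 0.29 (adjusted p = 0.00588), lower in 16 of 19 batches. *Eip93F*, an ecdysone-induced factor of neuronal timing, had a difference of -1.18 (means 5.25 and 10.5, adjusted p = 0.000217), in 18 batches. *CG31814* had -2.12, *Nep1*, a neprilysin peptidase, -1.94, the POU factor gene *pdm2* -1.49 and *CG32700* -1.28 (adjusted p = 0.000119, 0.000299, 0.00158 and 0.00532). *hth* (homothorax), a marker of lateral neurons, had -0.82 (adjusted p = 2.68e-05). Of 12 markers of other dorsal and lateral posterior clusters, *pdm2* and *ey* were lower and none was higher.

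Clock genes were higher in the peptide-poor cells than in those without *gl*: 5 of 8 passed and none was lower, with a median of 0.86 against -0.04 over all genes. *vri* was higher by 1.39 (adjusted p = 0.00635), *tim* by 1.01 (adjusted p = 0.0142), *cwo* by 0.92 (adjusted p = 0.0131) and *Pdp1* by 0.57 (adjusted p = 0.00926). *Clk* was higher by 1.16 (adjusted p = 0.0360), but lost the call without CT10 batch 2, CT18 batch 1, CT22 batch 2, ZT02 batch 1 or 2, ZT06 batch 2 or ZT22 batch 1 or 3 (0.0541 to 0.144). *per* (0.33), *cyc* (0.61) and *cry* (0.80) did not pass. None of 16 neuropeptide genes and 12 other transmitter genes tested passed in either direction. The summed monoamine markers averaged 33.9 TP10K in the peptide-poor cells and 59.2 in those without *gl*, and their part in these differences was not tested.

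With at least 2 *gl* UMIs required of the peptide-poor cells, 254 genes passed in place of 119.

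**Figure D5:**
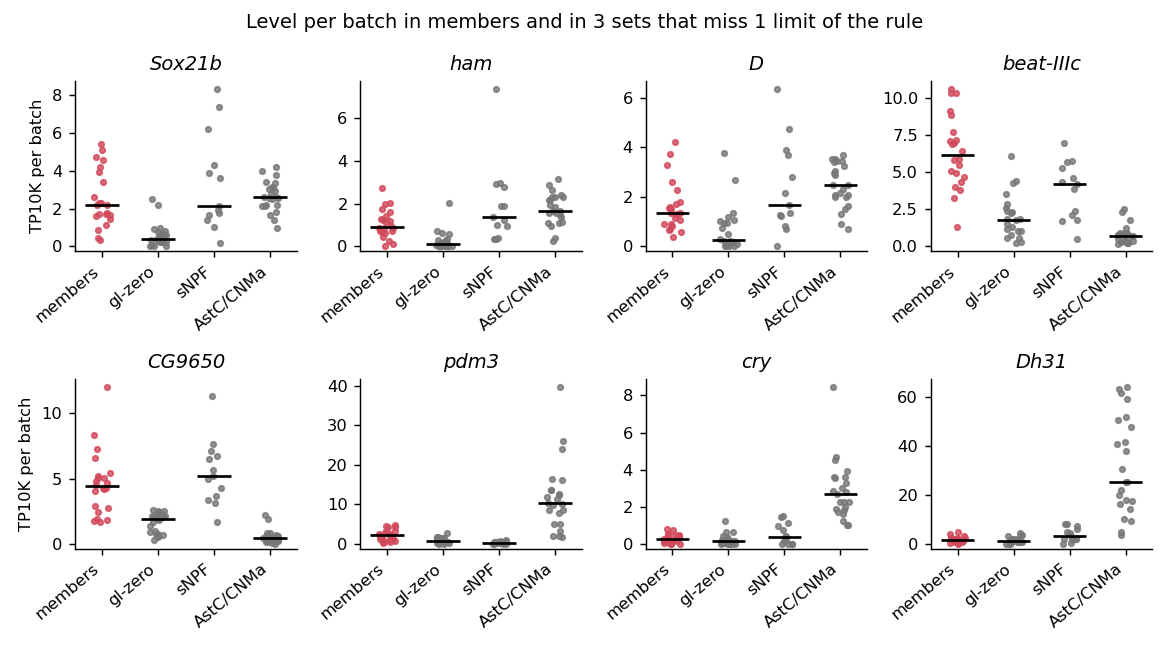
Levels in TP10K (vertical axes) of 8 genes in the peptide-poor cells (members), the cells without a *gl* UMI (gl-zero), the *sNPF* cells and the *AstC*/*CNMa* cells. Points are batches with at least 3 cells of the set and black lines are medians. The medians of *Sox21b* are 2.19 in the peptide-poor cells and 0.38 without *gl*, and those of *Dh31* are 1.47 and, in the *AstC*/*CNMa* cells, 25.4.

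Against the 283 *AstC*/*CNMa* cells the difference was much wider: 264 genes (4.54%) were higher and 488 (8.38%) lower in 20 batches. With library size in place of TMM the split was 508 and 336, the median of all genes moving from -0.09 to 0.11, so that directions of small differences depend on the scaling. *beat-IIIc* ran from 1.30 over 6.16 to 10.6 TP10K in the peptide-poor cells and from 0.15 over 0.70 to 2.53 in the others. It was higher by 3.05 ± 0.25 (adjusted p = 3.21e-19), in 20 of 20 batches. *CG9650* was higher by 2.94 (adjusted p = 3.21e-19) and *Toll-6*, a Toll receptor with roles in wiring, by 2.94 (adjusted p = 1.78e-16). *CG17193* was higher by 3.34 and *Sema-2b*, a secreted guidance cue, by 2.87. *CG1402* was higher by 2.59, but in the cells of the *beat-IIIc*/*CG9650* cluster alone its difference was -0.095.

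The genes that were lower included the peptide gene *Dh31*, which was not in the rule. It ran from 0 over 1.47 to 4.96 TP10K against 3.68 over 25.4 to 64.1, and overlapped only at the edges. Its difference was -4.65 ± 0.33 (adjusted p = 6.42e-23), lower in 20 of 20 batches. *Mmp2*, a matrix metalloproteinase, had a difference of -3.96 (means 0.744 and 10.7 TP10K, adjusted p = 8.72e-26), also in 20 batches. *Lac*, a septate junction protein, had -3.84, *CG31705* -3.79, *Nos*, the nitric oxide synthase, -3.63 and *nrv1*, a subunit of the sodium pump, -3.39. Of the genes best known from photoreceptors, 4 of 10 tested were lower and none higher, although their median was 0.29 against -0.09 over all genes. Among the 4 was *inaC*, the eye protein kinase C (-5.30, with a UMI in only 3 of 22 batches of the peptide-poor cells). *norpA*, also of the 4, lost its call in 12 fits that left out a batch (edgeR adjusted p = 0.0520 to 0.107).

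All clock genes but *cyc* were lower than in the *AstC*/*CNMa* cells, 7 of 8 with a median of -1.17 against -0.09 over all genes. *tim* ran from 0.42 over 5.57 to 25.1 TP10K against 0.15 over 11.7 to 41.7 and had a difference of -1.38 (adjusted p = 2.77e-06), in 17 of 20 batches. *vri* had -1.59, *Clk* -1.53, *cwo* -0.97 and *Pdp1* -0.81. *cry*, the blue light photoreceptor of clock neurons, ran from 0 over 0.28 to 0.82 TP10K against 1.03 over 2.69 to 8.47, so no batch overlapped. Its difference was -3.36 ± 0.31 (adjusted p = 4.73e-16). *per* had -0.75 (adjusted p = 0.0303) and lost the call without CT10 batch 3, CT18 batch 1, ZT06 batch 2 or ZT10 batch 1 (0.0525 to 0.0632) and with library size in place of TMM (0.143).

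The 60 cells of the largest cluster were chosen by expression, so their values against the *AstC*/*CNMa* cells are a description only. The difference was -0.62 for *tim*, -0.75 for *vri*, -0.53 for *cwo*, -0.17 for *Pdp1*, -0.86 for *Clk*, -0.89 for *per* and -2.75 for *cry*. *D* (-0.90, adjusted p = 0.00675) and *ham* (-1.03, adjusted p = 0.0103) were lower over all peptide-poor cells, lost the call with library size in place of TMM (0.0607 and 0.0636), and had -0.25 and -0.34 in the largest cluster.

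Receptor and surface genes separated these sets in both directions. Of 33 transmitter and amine receptor genes tested, 13 were higher and 2 lower, with a median of 0.56. *GluClalpha*, the glutamate-gated chloride channel, was higher by 1.43 (means 7.99 and 2.56 TP10K, adjusted p = 4.25e-12), *mGluR* was among the 13, and *nAChRalpha3*, an acetylcholine receptor subunit, was higher by 1.01. *nAChRalpha5* (0.58) and *nAChRalpha6* (0.50) were higher over all cells but had -0.11 and -0.47 in the largest cluster. Of 22 peptide receptor genes, 2 were higher, among them *sNPF-R* by 2.13 (adjusted p = 6.18e-07), and 5 lower, among them *Pdfr* with -1.70 (adjusted p = 4.37e-12) and *CCHa2-R* with -3.99.

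Of 49 cell surface recognition genes, 16 were higher and 8 lower, with a median of 0.64. *dpr9*, of the Dpr family that pairs with DIP proteins, was higher by 2.33 (adjusted p = 1.53e-14) and *dpr12* was lower (means 2.63 and 4.48 TP10K, adjusted p = 3.37e-07). Of 28 dorsal neuron transcription factors tested, a list the study chose on these samples, 3 were higher and 11 lower. *pdm3* had -2.43 (means 2.40 and 11.2 TP10K, adjusted p = 1.50e-13), while it was higher than in the cells without *gl*. Of 6 lateral neuron markers tested, *hth* was higher and none was lower, but its sign changed in the largest cluster. Of 12 markers of other dorsal and lateral posterior clusters, *Kr* was higher and none was lower. *Ddc* (dopa decarboxylase) was higher by 1.70 in 20 of 20 batches. *Vmat* was higher by 1.64 (adjusted p = 0.0241), but lost the call without CT02 batch 2, CT22 batch 1, ZT02 batch 2 or ZT14 batch 2 (0.0538 to 0.0833), and had -0.74 in the largest cluster.

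Of the stress list, 5 of 10 genes were lower and none higher than in the *AstC*/*CNMa* cells, among them *Hsp23* with -1.17, *Hsp27* with -1.32 and *Hsc70-4* with -0.92. Mitochondrial genes took a median of 6.15% of the UMIs in the peptide-poor cells and 9.22% in the *AstC*/*CNMa* cells.

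Against the 92 *sNPF* cells, 32 genes (0.55%) were higher and 13 (0.223%) lower in 13 batches, and with library size in place of TMM the split was 25 and 21. *pdm3* ran from 0.34 over 2.17 to 4.74 TP10K in the peptide-poor cells and from 0 over 0.37 to 1.03 in the *sNPF* cells. It was higher by 2.60 ± 0.42 (adjusted p = 1.21e-05), in 13 of 13 batches. *ed* (echinoid, a cell adhesion protein) was higher by 1.41 (adjusted p = 0.000672), the noncoding RNA *CR44029* by 1.77 and *CG42342* by 1.47. *Scp2*, a calcium-binding protein, was higher by 2.18 (adjusted p = 0.0181) and *Sema-2b* by 1.65 (adjusted p = 0.0181). *Scp2* lost the call without CT18 batch 2 (0.0610) or ZT02 batch 2 (0.0503) and had -0.26 in the largest cluster, and *Sema-2b* lost it without CT02 batch 1 (0.0545), ZT02 batch 2 (0.0655) or the batches that stand apart (0.0516).

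*CNMaR*, the receptor of the peptide CNMa, led the lower genes. It ran from 0 over 0.10 to 2.82 TP10K against 0 over 1.63 to 4.57, with a difference of -2.63 ± 0.52 (adjusted p = 0.00105) in 11 of 13 batches. *CG1402* had -2.13, *mspo*, a secreted spondin, -1.79, *PVRAP* -1.50 and *Pka-R1*, a regulatory subunit of protein kinase A, -0.92 (adjusted p = 0.0112). *DIP-theta*, a partner of Dpr proteins, had -1.34 (adjusted p = 0.0227) and lost the call without CT18 batch 2 (0.0780), ZT02 batch 2 (0.0711) or the batches that stand apart (0.0544).

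Of 16 neuropeptide genes outside the rule, *Mip* (-4.77, adjusted p = 7.90e-06) and *Dh44* (-1.52, adjusted p = 0.0112) were lower than in the *sNPF* cells, the latter not without CT18 batch 2 (0.0575). No clock gene passed (0 of 8). *tim* had 0.43 ± 0.31 (adjusted p = 0.743), *Clk* -0.55 ± 0.35, *D* -0.08 ± 0.31 and *ham* -0.48 ± 0.37, so for these 4 genes a difference was not detectable with 13 batches.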

How the data were processed

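Single neurons were measured with CEL-Seq2 in 84 libraries. The authors aligned reads to dm6 with zUMIs and STAR (bcl2fastq 2.20 before) and deposited the raw UMI counts by gene and well, from exons alone. Spike-in and EGFP rows were left out. Wells were filtered and selected by the rule; no doublet caller was run and only the upper limits on genes and UMIs act on doublets. Cells were clustered with leidenalg 0.10.2 (1500 variable genes, 40 components) in Python 3.11.15. UMI counts were summed per batch and set, batches with under 3 cells left out, and tested with edgeR 4.0.16 in R 4.3.3 (TMM, filterByExpr, quasi-likelihood, Benjamini-Hochberg), after a test on simulated data. Fits of the largest cluster only kept batches with at least 1 cell, for every set compared, so they differ from the main fits in batches as well as in cells. Coordinates (1-based, BDGP6.54, the dm6 assembly) came from Ensembl.

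Genes named are, per set contrast, the 6 highest and 6 lowest folds (1 TP10K or more, same direction in 80% of batches), for light the 5 and 5 extremes, for rhythms the cyclers, always clock genes, *D* and *ham*, and list members that passed with the highest means. Members, lists and named genes were chosen with earlier results of these data known. Alternatives were library size, DESeq2 1.42.0, other cell limits and filters, the batch term and leaving out batches. Those with the doubted batches or those that stand apart left out, the largest cluster or a *D* or *ham* UMI were chosen after seeing the data.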

Additional observations from a re-analysis of the deposited data

Results flagged for a closer look

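EGFP, the sort marker, was left out of every comparison. An EGFP UMI was found in 95.9538% of the peptide-poor cells, above the limit that a count of 0 allows, with a median of 16 UMIs per cell. The share was 95.2% of all kept cells.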

How the results depend on the processing

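The number of peptide-poor cells was 108 with *VGlut* of 16 TP10K or more, 76 with no *sNPF* UMI, 60 in the largest cluster and 124 to 225 under 5 other limits. The LD rhythm gave 1 cycler, with 0 under *AstC* under 15 and *CNMa* under 10, at least 2 *gl* UMIs, at least 6 cells, a *D* or *ham* UMI, the doubted batches left out, the batches that stand apart left out, the largest cluster only and the time point as a factor, 2 with DESeq2, 82 with no filter on low counts and 0 to 1 without single batches. The DD rhythm gave 0, with 1 in DESeq2, 115 with no filter, 2 with the time point as a factor and 0 to 1 without single batches. The rhythms compared gave 0, with 1 at 2 *gl* UMIs and 0 to 0 without single batches, and the fit with no filter could not be fitted.

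The 41 genes that differed between DD and LD became 20 under the stricter *AstC* and *CNMa* limits, 81 with DESeq2, 16 at 2 *gl* UMIs, 4 at 6 cells, 7 with a *D* or *ham* UMI, 20 without the doubted batches, 10 in the largest cluster and 21 to 41 without single batches. Against the cells without *gl* the 119 genes became 254 at 2 *gl* UMIs, 214 with a *D* or *ham* UMI, 644 in the largest cluster and 85 to 126 without single batches. Against the *AstC*/*CNMa* cells the 752 genes stayed between 704 and 773 without single batches. Against the *sNPF* cells the 45 genes became 69 with DESeq2, 108 at 1 cell, 18 at 2 *gl* UMIs, 14 at 6 cells, 22 with a *D* or *ham* UMI, 201 in the largest cluster, 75 with no filter and 31 to 55 without single batches.

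Whether the digits in the titles pair the samples cannot be told from the 7 pairs of batches that share them. Of these, 2 correlated above 0.1, with a median of 0.07. Of 65 pairs with other digits 14 did, with a median of -0.02. With a replicate block the counts were 12 for the LD rhythm, 15 for the DD rhythm, 5 for the rhythms compared and 50 for DD against LD, and *vri* in LD (amplitude 2.72, edgeR adjusted p = 0.0120) and *tim* between the rhythms (3.28, adjusted p = 0.00361) passed. With no replicate block, that is without the batch term, the set contrasts gave 52 (cells without *gl*), 495 (*AstC*/*CNMa*) and 13 (*sNPF*), and *per* changed sign to 0.32 against the *AstC*/*CNMa* cells. The cells of the largest cluster and those with a *D* or *ham* UMI were chosen by expression, so their counts against the other sets are no tests. In the largest cluster only, the sign also changed for *CG1402* (-0.095), *Vmat* (-0.74), *hth* (-0.14), *nAChRalpha5* (-0.11) and *nAChRalpha6* (-0.47) against the *AstC*/*CNMa* cells and for *CG43689* (-1.39), *Pdp1* (0.69) and *Scp2* (-0.26) against the *sNPF* cells. The causes of these changes were not tested.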
